A study of Saccharomyces cerevisiae with 50 samples.

Results

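The 10 iron uptake genes of Saccharomyces cerevisiae described here are FIT1 (YDR534C), FIT2 (YOR382W), FIT3 (YOR383C), FRE1 (YLR214W), FRE2 (YKL220C), FET3 (YMR058W), FTR1 (YER145C), ARN1 (YHL040C), ARN2 (YHL047C) and SIT1 (YEL065W). They are 10 of the 6205 open reading frames on the arrays, and all 10 passed the filter on missing values. The set was chosen on the low log2 ratios of FIT2 right after release, so the values of 0, 5 and 10 min are given as a description with no test. The tests use the 22 time points from 15 to 120 min.

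The culture followed was a yox1 deletion mutant that alpha factor, a mating pheromone, had arrested in G1 before release into YEPD, a rich medium. It was sampled at 25 time points, every 5 min from 0 to 120 min. The reference was an asynchronous wild-type culture grown overnight in YEPD. Mutant RNA carried Cy5 and reference RNA Cy3, and every time point was measured on 2 arrays, 1 in each of 2 array sets, which are technical repeats per the design text. No dyes were exchanged, and no synchronised wild-type course was compared, so the deletion, the synchrony and the pheromone treatment cannot be told apart in any level set against the reference. In bulk RNA, fewer cells with a transcript and less transcript per cell also cannot be told apart.

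All values are log2 ratios of the yox1 mutant time point over the wild-type reference, with the median of each array set to 0. The deposited values were read as log10 ratios of Cy5 over Cy3. Neither base nor direction is stated: the base follows from values that end at exactly -2 and 2, and the direction follows from the labelled dyes. The pheromone-induced fusion gene FUS1 fits that direction, with 3.67 and 3.96 in array sets 1 and 2 at 0 min. So do FIG1 (5.55 and 5.73) and AGA1 (4.88 and 6.02), the other pheromone-induced genes examined. The deleted gene YOX1 lay below the reference on 49 of 49 arrays, between -2.25 and -0.02. STE3, the pheromone receptor gene of the opposite mating type, was below the reference on 38 of 48 arrays, with a median of -0.20. The titles carry 5 dates, which largely divide the course: in array set 1 the arrays from 60 to 115 min have a date of their own, and in array set 2 those from 20 to 55 min do. The titles of 3 arrays of set 2, at 0, 5 and 15 min, hold an M of unstated meaning. Errors and p-values come from the scatter of times within 1 time course and leave out variation between cultures.

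Budding yeast takes up iron by a reductive and a non-reductive route. In the reductive route, surface reductases turn ferric into ferrous iron, which a complex of a copper-containing oxidase and a permease then carries through the plasma membrane. In the non-reductive route, transporters import iron bound to siderophores, the chelators secreted by other microbes, and mannoproteins of the cell wall hold such chelates near the cell. The transcription factor Aft1, with its paralogue Aft2, turns on these genes when iron is scarce.

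**Figure D1:**
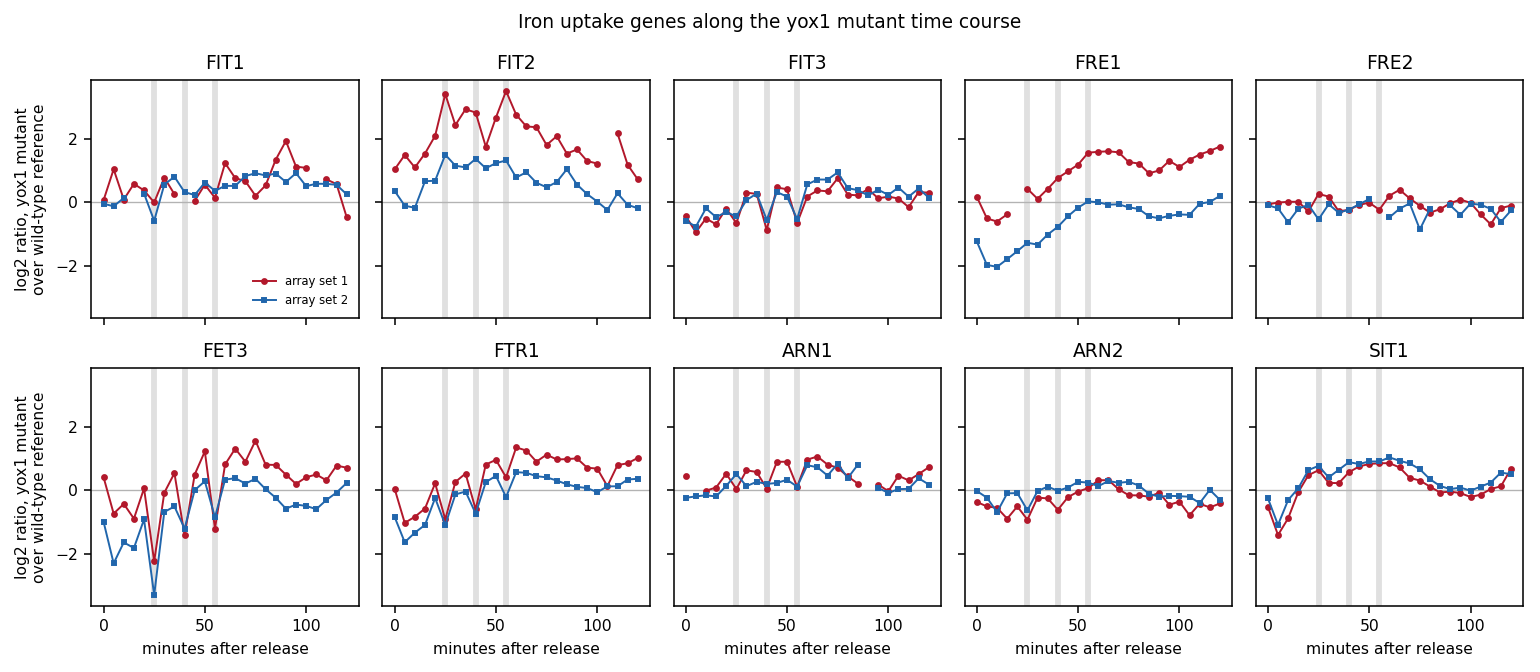
Log2 ratio of the yox1 mutant over the wild-type reference against minutes after release, 1 panel per gene, with array set 1 in red circles and array set 2 in blue squares. Grey bands mark 25, 40 and 55 min. FRE1 and FIT2 keep their shape in both sets but lie higher in set 1 at 24 of 24 times. SIT1 differs less, with set 1 minus set 2 at a mean of -0.22 and set 1 higher at 1 of 25 times. FRE2 stays close to 0.

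The release values that led to the choice of these genes were as follows. FIT2, a mannoprotein of the cell wall, had 1.04, 1.49 and 1.10 at 0, 5 and 10 min in array set 1, and 0.36, -0.11 and -0.17 in array set 2. At 70, 75 and 80 min, about 1 cycle later, it had 2.37, 1.81 and 2.09 in array set 1 and 0.62, 0.48 and 0.64 in array set 2. Within each set, all release values of FIT2 were below all of the later ones. The mean release level was 0.62, which is 0.71 below the mean of 1.33 at 70 to 80 min (difference -0.71), and 1.72 below the level that a cycle model of the later time points gives for these times (difference -1.72). FIT2 was thus low at release relative to the middle of its course, but not to its end, where the mean over 100 to 120 min was 0.49. Against the reference, it lay above at every measured time in array set 1. In array set 2 it lay below at 5 and 10 min, and again at 105, 115 and 120 min.

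The choice rests on FIT2, but the other members were also picked with results of these data known, so the same comparison is again a description. Of the 10 genes, 9 had a lower mean at 0 to 10 min than at 70 to 80 min and 1 had a higher one. The difference was -1.64 for the reductase FRE1, -1.63 for the iron permease FTR1 and -1.60 for the multicopper oxidase FET3. It was -1.19 for the ferrioxamine transporter SIT1 and -1.15 for the mannoprotein FIT3. ARN1, FIT1 and ARN2 differed by -0.66, -0.47 and -0.46, and the reductase FRE2 by 0.074. The median over 6165 genes was -0.01. In both array sets, all release values of 7 members were below all of those of 70 to 80 min, as were those of 386 of 5856 genes (6.59%); the choice used this contrast, so nothing is read from that count. So 5 members had a larger difference than FIT2 by this comparison. Against the cycle model, which carries the fitted wave and slope back to these times, FIT2 had the largest difference of the members and SIT1 followed with -1.45. FTR1 had -0.92, and the others lay between -0.60 and -0.12, with FRE1 at -0.46 and FET3 at -0.40.

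**Figure D2:**
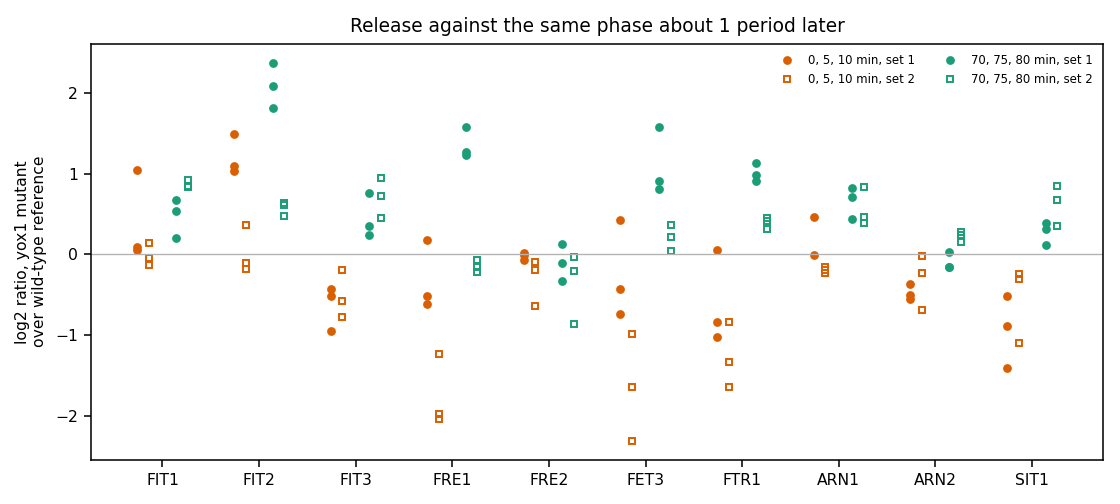
Log2 ratios over the wild-type reference on single arrays at 0, 5 and 10 min (orange) and at 70, 75 and 80 min (green), filled circles for array set 1 and open squares for array set 2. FIT2, FIT3, FRE1, FET3, FTR1, ARN2 and SIT1 do not overlap between these times within either set, whereas FRE2 overlaps in both.

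Of the 10 members, 7 had their highest mean of both arrays between 60 and 75 min, whereas FIT2 had it at 25 min, FIT1 at 90 min and FRE1 at 120 min. The 7 include FRE2, whose highest mean was only 0.10 and whose array sets had r = -0.09. No share over all genes stands beside this count, so nothing is read from it. Whether the courses followed the cycle was tested by fitting each gene over 15 to 120 min with a cosine and a sine at a common period of 73 min and a linear term, using limma's moderated F-test with Benjamini-Hochberg adjusted p under 0.01 as the threshold. The period came from 78 marker genes of the cell cycle. Of 6046 genes tested, 752 (12.4%) were called periodic, and among them were 3 of the 10 iron uptake genes: FRE1, SIT1 and ARN2.

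SIT1, which imports ferrioxamine, had a course that was close in both array sets. It had -0.51, -1.41 and -0.88 at 0, 5 and 10 min in array set 1 and -0.25, -1.09 and -0.30 in array set 2. At 60 min it stood at 0.86 in array set 1 and 1.04 in array set 2, its highest values in both. From 85 to 105 min it ran between -0.21 and 0.14 on the 10 arrays, and at 120 min it was back at 0.68 and 0.51. The 2 sets thus traced the same single wave with the start of another rise at the end. Its peak-to-trough size was 0.80 ± 0.10 (SE, 22 time points), with a fitted peak at 56.6 min and a limma adjusted p of 1.41e-05. With the 3 release samples included it was not called (adjusted p of 0.0273).

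FRE1, a reductase of ferric iron and of copper at the cell surface, moved more. In array set 1 it had -0.38 at 15 min, 1.61 at 65 min, 0.92 at 85 min and 1.76 at 120 min. In array set 2 the same times gave -1.80, -0.07, -0.45 and 0.20. Both sets thus showed a climb, a shallow dip and a second climb, with set 1 higher at every shared time. The fitted size was 1.09 ± 0.14 (SE, 22 time points) and the fitted peak lay at 59.2 min, with a limma adjusted p of 3.34e-05. At 20 min only array set 2 had a value, which lowers that time point; over the times with both arrays the size was 0.98, with an adjusted p of 4.51e-06. With a period 10 min shorter it was not called (0.0161).

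ARN2, a transporter of the siderophore triacetylfusarinine C, moved less. Its means of both arrays were -0.49 at 15 min, -0.78 at 25 min, 0.31 at 65 min and -0.49 at 105 min. It was above the reference on 14 of 50 arrays, most of them between 45 and 80 min. The size was 0.62 ± 0.11 (SE, 22 time points) with a peak at 64.0 min and a limma adjusted p of 0.00118. It was not called with a period 10 min shorter (0.142) or with 2 harmonics in the model (0.0118).

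The other 7 members did not pass the test. FTR1, the permease that works with Fet3, had a size of 0.84 ± 0.21 (SE) with a limma adjusted p of 0.0214, and the ferrichrome transporter ARN1 had 0.55 ± 0.13 with an adjusted p of 0.0185. FET3 had the largest size of all members, 1.23 ± 0.39, with an adjusted p of 0.0786. FIT1, FIT2 and FIT3 had sizes of 0.51, 0.60 and 0.45, and FRE2 had 0.07. The median size of the 10 members was 0.61, against 0.28 over all genes tested. The fitted peaks of 9 members fell between 56.6 and 69.8 min, and that of FIT1 at 8.8 min. The earliest next peak of these 9 would lie at 129.6 min, after the last sample, so the course holds only 1 peak of them and no repeat of it. Of the 9, only FRE1, SIT1 and ARN2 were called, with peaks between 56.6 and 64.0 min. The other peaks belong to waves that did not pass, down to the size of 0.07 of FRE2, and say little. The share of all genes with a fitted peak in that range is not given. For comparison, the 16 periodic genes of the CLB2 cluster, which act in mitosis, had a median fitted peak at 58.2 min, the 8 periodic histone genes at 33.5 min and the 19 periodic MBF targets of late G1 at 20.5 min. The period was fitted on these lists.

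**Figure D3:**
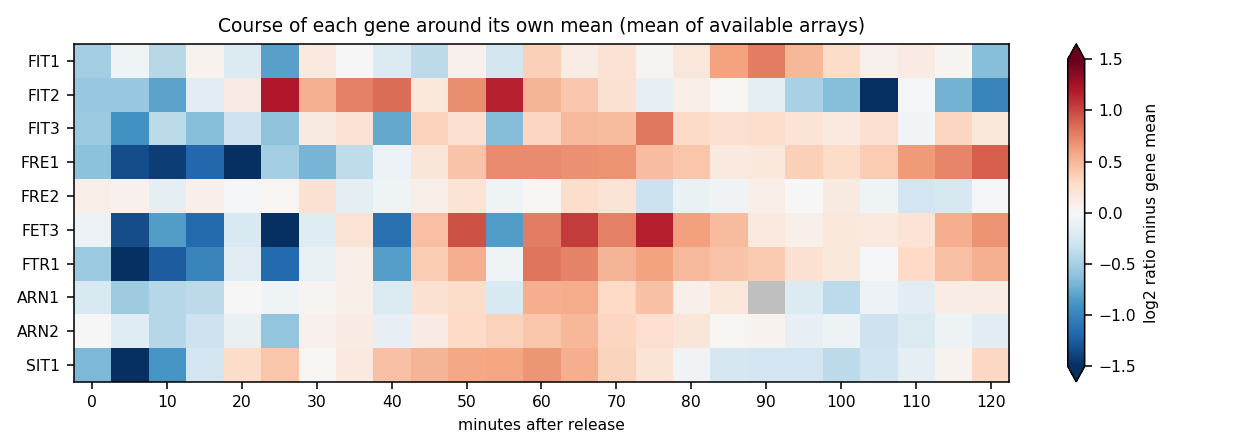
Each gene's log2 ratio minus its own mean over 25 time points, with minutes after release from left to right; red is above the gene's mean, blue below, grey not measured, and colours end at 1.5 either way. All 10 genes were above their own mean at 60, 65 and 70 min, and none was at 10 min. The means include the release samples that the choice read.

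Around its own mean over the course, every one of the 10 genes was above at 50, 60, 65 and 70 min and below at 10 min. These means include the release samples that the choice read, and low values there lower the mean. No share over all genes is given beside these counts, so nothing is read from them. The median of the centred values was -0.74 at 5 min, 0.53 at 60 min, 0.04 at 95 min and 0.14 at 120 min. At 25, 40 and 55 min this median lay below its neighbours, at -0.55, -0.16 and -0.07. The samples of these 3 times stood apart in general. Across genes, log2 ratios on these 6 arrays had an SD between 0.74 and 1.23, while the 44 remaining arrays ran between 0.33 and 0.83.

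The members moved in different directions on these 3 samples. FET3 had -2.24 in array set 1 and -3.30 in array set 2 at 25 min, where the means of both arrays were -0.43 at 20 min and -0.38 at 30 min. At 40 min it had -1.42 and -1.21, and at 55 min -1.21 and -0.85. The difference from the mean of the times 5 min before and after was -2.37, -1.45 and -1.70 at 25, 40 and 55 min. FTR1 averaged -0.94 and FIT3 -0.83 in the same comparison, each of them below on all 6 arrays. FIT2 was higher on all 6 arrays, by a mean of 0.60, and reached its highest value of either set there, 3.51 at 55 min in array set 1, and its peak at 25 min in array set 2. SIT1 averaged 0.12. FRE1 averaged 0.27, but array set 1 lacks 20 min and so has no such difference for 25 min; the others ran between -0.05 and 0.17. Over 5869 genes the median was 0.02, and 90% of genes lay between -1.45 and 1.05, so FET3 alone of the members was outside that range. What sets these samples apart was not tested.

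**Figure D4:**
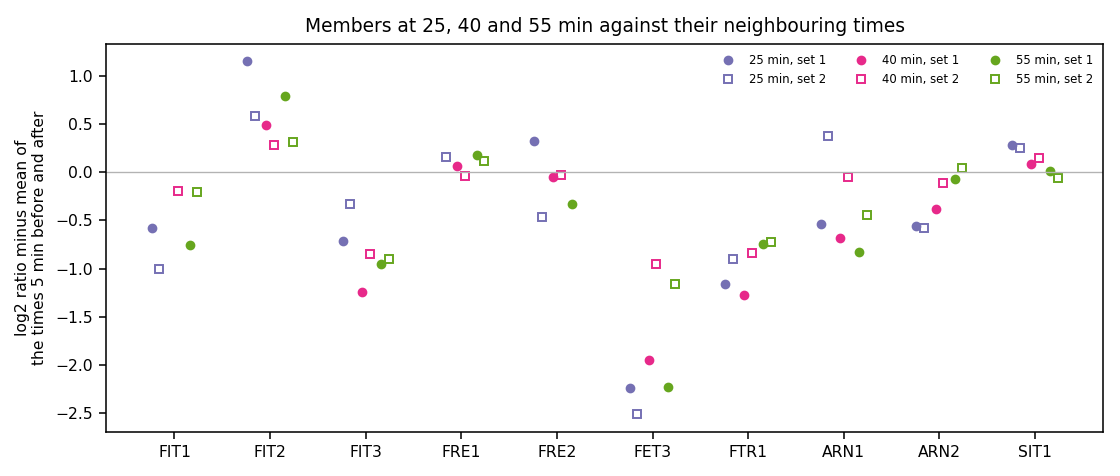
Log2 ratio at 25, 40 and 55 min minus the mean of the times 5 min before and after in the same array set, for each gene; filled circles are array set 1 and open squares array set 2. FET3, FTR1 and FIT3 lie below 0 on every array and FIT2 above 0 on every array, while SIT1 and FRE1 stay near 0.

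Without these 3 samples, a choice made after seeing the data, 1935 of 6061 genes (31.9%) were called periodic, and 6 of the 10 members were. FET3, FTR1 and ARN1 then joined SIT1, FRE1 and ARN2. The size was 1.18 for FET3 (limma adjusted p of 0.000342), 0.81 for FTR1 (0.0016) and 0.69 for ARN1 (0.000178), with fitted peaks between 61.4 and 61.5 min. The share of all genes called went up as well, so the larger count says little about the members as a set.

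A second question was whether levels drifted along the course apart from the wave. The linear term of the same fit was higher with time for 350 genes (5.79%) and lower for 334 (5.52%). Of the iron uptake genes, FRE1 and FTR1 rose, and FIT2 and SIT1 fell. FRE1 rose by 0.85 ± 0.09 log2 units per hour (SE, 22 time points; limma adjusted p of 1.9e-06), and FTR1 by 0.55 ± 0.14 (0.00781). FIT2 had a slope of -0.93 ± 0.17 per hour (0.000703) and SIT1 of -0.32 ± 0.06 (0.00142). FRE1 at 20 min and FIT2 at 105 min had a value in array set 2 alone. Over the times with both arrays, the slope was 0.75 for FRE1 and -0.82 for FIT2. Both were still called, with limma adjusted p of 3.24e-07 and 0.00119. FET3 had a slope of 0.79 ± 0.26 that did not pass, with an adjusted p of 0.0301. The slopes of FIT1, FIT3, FRE2, ARN1 and ARN2 lay between -0.10 and 0.38 and did not pass either. With single arrays as values, array set as a factor and time point as block, FET3 and FIT3 did pass. Their limma adjusted p were 0.00305 and 0.00757. That setting counts both arrays of a time point, technical repeats per the design text, as separate values, which the main fit does not.

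Early and late arrays carry different title dates, and with the date as a factor FRE1 alone of the 4 kept its call, while 52 genes in all were called instead of 684. The slope of FIT2 was then -1.15 with a limma adjusted p of 0.0231, that of FTR1 0.44 with 0.374, and that of SIT1 -0.18 with 0.524. With the 3 release samples included, the slope of SIT1 was 0.042 and that of FIT2 -0.50, neither of them called (adjusted p of 0.851 and 0.0776), while FET3 (0.89) and FIT3 (0.51) were called (0.00513 and 0.00437). The call of FTR1 was lost in 14 of 22 fits that left out 1 time point each, with slopes between 0.45 and 0.60.

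Within single dates, a line alone, a form chosen after seeing the data, showed where these slopes lay. FRE1 climbed by 2.78 ± 0.33 per hour over 20 to 55 min in array set 2 (SE, 8 time points; limma adjusted p of 0.0064). It had slopes of only 0.05 over 60 to 120 min in array set 2 and -0.11 over 60 to 115 min in array set 1, with adjusted p of 0.943 and 0.849. Over 15 to 55 and 120 min in array set 1 its slope was 1.13 (0.389). FIT2 had a slope of -1.09 over 60 to 120 min in array set 2 and -1.30 over 60 to 115 min in array set 1, against 0.45 over 20 to 55 min in array set 2, with adjusted p of 0.0187, 0.0642 and 0.80. Over 15 to 55 and 120 min in array set 1 it had -0.81 (0.801). No slope of FIT2 within a date passed the threshold of 0.01, and part of each slope is the wave itself, which a line alone does not separate.

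The next comparison set each time point against that 70 min earlier, near the same phase of the preceding cycle, with no fitted wave: 85 to 120 min minus 15 to 50 min. Of 5967 genes, 47 (0.788%) were higher later and 60 (1.01%) were lower by limma's moderated paired test. FRE1 was the only member that passed. It was higher at the later time in 7 of 7 pairs of array set 1 and in 8 of 8 of array set 2, by 0.94 ± 0.14 (SE, 8 pairs; limma adjusted p of 0.00498). FIT2 was lower later in every pair of array set 1 and in all but 1 pair of array set 2, by a mean difference of -1.08 ± 0.24 with an adjusted p of 0.0263. SIT1 likewise was higher later in 0 of 8 pairs of array set 1 and in 1 of 8 of array set 2, with a difference of -0.43 ± 0.09 and an adjusted p of 0.0192. FRE1 at 20 min and FIT2 at 105 min had a value in array set 2 alone. Over the times with both arrays, the difference was 0.81 for FRE1 and -0.91 for FIT2, with limma adjusted p of 0.00386 and 0.0407. With differences taken within each array set, array set as a factor and the pair as block, FIT2 and SIT1 were called. Their differences were then -0.96 (limma adjusted p of 0.00362) and -0.43 (0.00267). This setting enters both arrays of a time point, technical repeats per the design text, as separate values. It called 315 of 5654 genes, against 107 of 5967 in the main test, so the added calls of members say little.

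**Figure D5:**
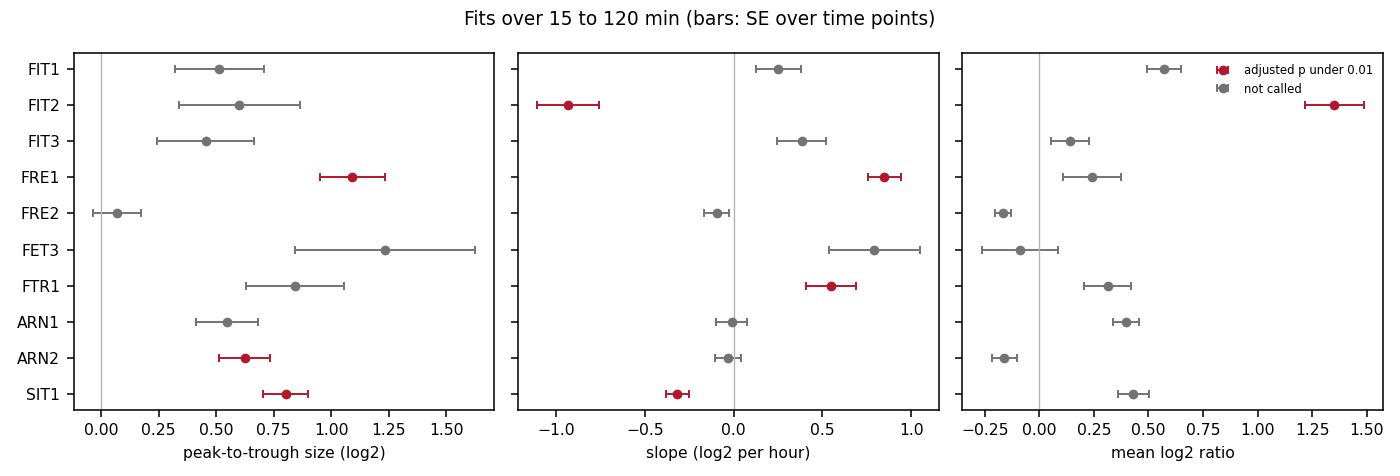
Peak-to-trough size of the fitted wave, slope per hour and mean log2 ratio over the wild-type reference from 15 to 120 min, with SE over 22 time points; red marks an adjusted p under 0.01. FRE1 and SIT1 are marked for both wave and slope, and FIT2 for slope and mean.

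The level over 15 to 120 min was then compared with the asynchronous wild-type reference; this reference is 1 control sample, and its variation is not part of the test. By limma's test against a fold change of 1.5, 86 genes (1.42%) were higher than the reference and 157 (2.6%) were lower. FIT2 was the only member that passed, with a mean of 1.35 ± 0.14 (SE, 22 time points; limma adjusted p of 0.000177), which is 2.55-fold. FIT1 followed with 0.57, SIT1 with 0.43, ARN1 with 0.40, FTR1 with 0.31 and FRE1 with 0.24. FIT3, FET3, ARN2 and FRE2 had means of 0.14, -0.09, -0.16 and -0.16. The order among FTR1 (0.31 ± 0.11), FRE1 (0.24 ± 0.13) and FIT3 (0.14 ± 0.08) does not exceed their SE, and these are differences from the reference, not levels that compare 1 gene with another.

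The level of FIT2 depended on the array set. Over 15 to 120 min it averaged 2.12 ± 0.75 in array set 1 (SD over 21 time points) and 0.69 ± 0.52 in array set 2 (SD over 22 time points). With array set 2 alone it was not called (limma adjusted p of 1), and with array set 1 alone FRE1 was called as well, at 1.09. Array set 1 was higher than array set 2 by 1.52 ± 0.12 for FRE1 (SD over 24 time points) and by 1.36 ± 0.44 for FIT2, at 24 of 24 times for each. FET3 differed by 0.82 at 23 of 25 times in that direction, and FTR1 by 0.57 at 25 of 25. For the other 6 members the difference lay between -0.26 and 0.20. Over all genes the median difference was 0.01, and 95% lay between -0.71 and 0.62, so FRE1, FIT2 and FET3 were outside that range. Both sets measured the same samples per the design text, and what shifted them was not tested.

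The shape of a course was closer between the sets than its level. Over the time points measured on both arrays, Pearson's r between the sets was 0.99 for FRE1, 0.96 for SIT1, 0.96 for FTR1, 0.90 for FIT3, 0.89 for FET3 and 0.83 for FIT2. It was 0.68 for ARN2, 0.50 for ARN1, 0.42 for FIT1 and -0.09 for FRE2. The median was 0.86 for the members and 0.66 over 5705 genes. FRE2, which ran between -0.86 and 0.40 on 48 arrays, thus showed no course that both sets shared. The points of each r share culture and samples, so these values describe the measurement.

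Among the members, the highest r on shared arrays was that of the reductive pair FET3 and FTR1. FET3 and FTR1, whose products form the uptake complex, correlated at r = 0.90 over 25 time points, and FIT3 correlated at 0.88 with FTR1 and 0.87 with FET3. The drops at 25, 40 and 55 min are in all 3 courses, but without these times the values were 0.94, 0.90 and 0.90. FTR1 with FRE1 gave 0.80. Over the 45 pairs the median r was 0.47, with 19 pairs over 0.5 and 6 below 0. The 25 time points include the release samples that the choice read, and no r over pairs of all genes is given. Nothing is therefore read from these counts. Over 15 to 120 min FET3 and FTR1 gave 0.94, and FTR1 and FRE1 0.68. FTR1 and SIT1 gave 0.10 there, against 0.55 over 25 time points. In all these values the 2 genes of a pair share arrays. With 1 gene taken from array set 1 and the other from array set 2, which share samples but no array, FET3 and FTR1 gave 0.78 and 0.93, and FTR1 and FRE1 gave 0.83 and 0.87. FIT3 gave 0.87 and 0.81 with FTR1, and 0.82 and 0.82 with FET3. By these values FET3 and FTR1 did not stand out from the other pairs named. The release samples are included here too.

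With 25, 40 and 55 min included, FIT2 ran apart from FIT1 and from FIT3, its neighbour on the chromosome. FIT2 and FIT3 stand next to each other in the gene order of assembly R64, followed by the reductase gene FRE5. Their courses had r = -0.14 over 25 time points and 0.28 without 25, 40 and 55 min. FIT2 with FIT1 gave -0.08, and 0.28 without these times, while FIT1 with FIT3 gave 0.49 and 0.37. Without these times FIT2 thus stood little further from either than they did from each other. Over 15 to 120 min FIT2 gave -0.40 with FIT3 and -0.23 with FIT1. FIT2 with FET3 gave -0.21, and 0.32 without these 3 times. At 55 min, 1 of the 3 times whose samples stood apart in general, FIT2 was at 3.51 in array set 1 and 1.32 in array set 2. FIT3 was at -0.65 and -0.53 there. At 75 min, where FIT3 reached its highest values of 0.76 and 0.94, FIT2 had come down to 1.81 and 0.48. The member most like FIT2 over 25 time points was SIT1, at r = 0.63, which ranked 104 of 5776 genes, followed by ARN2 at 0.39. Over 15 to 120 min, without the release samples, SIT1 gave 0.63 and ARN2 0.31. Without 25, 40 and 55 min ARN2 came first, at 0.72, before SIT1 at 0.56 and ARN1 at 0.55.

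The 10 genes with courses most like that of FIT2 over 25 time points included no iron uptake gene. They were VTC1 (r = 0.82), YOR225W, CYC1, PHM6, YMR187C, RIB4, MBF1, COX23, CYB5 and PMP3 (0.73). VTC1 encodes a subunit of the vacuolar polyphosphate complex, CYC1 cytochrome c, RIB4 an enzyme of riboflavin synthesis and CYB5 cytochrome b5. Over 15 to 120 min alone, 3 of these 10 were still among the 10 most alike, and in array sets 1 and 2 alone, 4 and 5 were. The genes outside the set most like the median course of the 10 members were CAR2 (ornithine aminotransferase; r = 0.91), ANT1 (0.88), CHS2 (a chitin synthase of the septum; 0.88), the mitotic cyclin CLB2 (0.88) and NBA1 (0.86). These values include the release samples too. Over 15 to 120 min they were 0.83, 0.77, 0.85, 0.80 and 0.85 in the same order.

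Other genes of iron metabolism were read against the shares of all genes given above. Of 18 further genes known as targets of Aft1 or Aft2, 16 were tested: 1 was periodic (12.4% of all genes), 2 had a lower slope (5.52%) and 2 a lower mean (2.6%). ENB1, the transporter of enterobactin and a relative of SIT1, was periodic with a size of 1.05 ± 0.23 (SE) and a peak at 62.8 min (limma adjusted p of 0.0085), near the peaks of ARN2 and FTR1. The iron-sulfur scaffold gene ISU1 and the heme oxygenase gene HMX1 fell along the course, with slopes of -0.33 and -0.27 per hour (limma adjusted p of 0.000465 and 0.00246), which were not called with title date as a factor (0.0301 and 0.381). The reductase genes FRE4 and FRE5 were lower than the reference, with means of -1.65 ± 0.04 and -0.90 ± 0.06 (SE). The median size of the wave over these 16 genes was 0.25, close to the 0.28 of all genes, and their median slope was 0.02. ENB1 also shared the set difference of FIT2 and FRE1, with array set 1 higher by 1.28.

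Of 8 regulators of iron response, 2 were periodic (12.4% of all genes). These were FRA1 and GRX4, whose products keep Aft1 inactive in iron-replete cells. Their sizes were 0.37 and 0.53, with peaks at 59.6 and 22.5 min (limma adjusted p of 0.00203 and 0.00986). AFT1 itself had means of -0.45 and -0.54 at 0 to 10 min in array sets 1 and 2, and of 0.03 and -0.25 at 60 to 75 min. AFT2 had 0.13 and 0.02, then -0.08 and -0.0047. Neither passed any of the 4 tests. Of 15 genes of heme and iron-sulfur synthesis, 2 were periodic (12.4% of all genes) and 1 had a lower slope (5.52%). These counts are near the shares of all genes and say little about the list. HEM15, the ferrochelatase that inserts iron into heme, was periodic (0.95, peak at 24.3 min, limma adjusted p of 0.00258). So was ARH1 (0.40, limma adjusted p of 0.00266). HEM13, a gene of heme synthesis, fell with a slope of -0.46 per hour (0.0042; 0.0372 with title date as a factor).

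Among 12 genes of copper, zinc and low-affinity metal transport, 3 rose along the course (5.79% of all genes) and were higher in the later of the paired times (0.788%), as FRE1 was. The copper transporter gene CTR1 had a slope of 1.10 ± 0.10 per hour (SE; limma adjusted p of 1.68e-07) and a later-minus-earlier difference of 1.22. The low-affinity iron transporter gene FET4 had 0.98 and 1.09, and the copper-regulated reductase gene FRE7 had 0.45 and 0.53; FRE7 was also periodic, with a size of 0.41. With title date as a factor the slopes of CTR1 and FRE7 were still called (limma adjusted p of 0.000187 and 0.00957) and that of FET4 was not (0.198). The zinc transporter gene ZRT1 fell by 0.23 per hour, which was not called with title date as a factor (adjusted p of 0.929), and was lower than the reference with a mean of -1.23. CTR1, compared with FRE1 after its values were seen, averaged -0.86 and -1.61 over 15 to 30 min in array sets 1 and 2, 0.60 and -0.44 over 60 to 75 min, and 0.88 and -0.02 over 100 to 120 min. FRE1 averaged 0.05 and -1.49, 1.51 and -0.07, and 1.47 and -0.12 in the same windows. Both genes were higher in array set 1 in each window. Their courses correlated at r = 0.84 over 25 time points of the same arrays, and array set 1 was higher by 0.84 for CTR1.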

How the data were processed

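Two-colour arrays of 25 time points in 2 array sets (50 arrays) were used. The authors deposited 1 value per spot; these were read as log10 ratios of Cy5 over Cy3, with the base inferred from the values and the dyes per the labels. The sources used here do not give the scanner, background correction, normalization or build. Intensities were not used, so the number of arrays limits the precision, and cross-hybridisation between relatives such as the FRE genes was not tested.

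The 12 control rows were left out. Values at exactly -2 (171) or 2 (41), none of a member, were set to missing, beside the 4.34% already missing. Ratios were converted to log2 and each array was centred on its median. Each time point is the mean of its arrays; where 1 lacked a value, the other stood alone. A gene was tested if at least 80% of its time points had a value. One array titled 75 min has a source name of 0 min and was counted as 75 min.

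Fits used limma 3.58.1 in R 4.3.3, and figures matplotlib 3.10.9 in Python 3.11.15. P-values were adjusted over all genes tested, with a threshold of 0.01. The fits were tested on simulated data. For gene names a RefSeq table (assembly R64) gave a match for 5703 open reading frames. MFALPHA1 and MFALPHA2 markers were not analysed here, nor were LSO1 and TIS11 among the Aft targets. Promoter and protein sequences were not used here.

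The text names the 10 members; up to 4 genes per related list, test and direction that passed; AFT1 and AFT2; the 10 genes most like FIT2; the 5 most like the members' median; and the label checks. Members and lists were chosen with earlier results of these data known.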

Additional observations from a re-analysis of the deposited data

How the results depend on the processing

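The 10 members were refitted with each array set alone, with each time point left out and under other centring, scaling, filters, periods, thresholds and batch terms. The calls of FRE1, SIT1 and ARN2 as periodic held with each array set alone and with each time point left out; SIT1 was lost with all 25 time points, FRE1 and ARN2 with a period 10 min shorter, and ARN2 with 2 harmonics. Members called periodic numbered 1 with a period 10 min shorter, 5 at an adjusted p under 0.05 and 5 with the time point as replicate block. They numbered 6 both with arrays scaled to one spread and without 25, 40 and 55 min. Genes called were 462 (shorter period), 459 (2 harmonics), 1278 (adjusted p under 0.05) and 1935 (without these 3 times), against 752. The numbers of genes called with scaled arrays and with the replicate block are not given, so nothing is read from those counts of members. Of the 4 members with a slope, 2 were called with scaled arrays, 2 with a line alone and 1 with title date as a factor. For slopes, too, the numbers of genes called with scaled arrays and with the replicate block are not given. Within title dates 1, 2, 4 and 5 limma called 0 members, and 1, 3, 1 and 0 had an unadjusted p under 0.05; it called 0, 0, 1 and 0 genes, with 112, 306 and 72 at an unadjusted p under 0.05 in the dates with 0. Genes with a slope numbered 414 to 818 by set, 1437 at an adjusted p under 0.05, 425 with the shorter period, 52 with title date, 328 with a line alone and 1243 without 25, 40 and 55 min, against 684. Slopes changed sign for SIT1 with all 25 time points (0.042), for FTR1 within dates 2 (-0.18) and 5 (-5.39) and for FIT2 within date 5 (5.05), where 8 time points carry both a wave and a line. For the mean level, 0 to 2 members and 121 to 519 genes were called by set; with 0 members called by limma in array set 2, 0 had an unadjusted p under 0.05. Against a fold change of 2, 0 members (1 at an unadjusted p under 0.05) and 50 genes were called, and against 1, 5 members and 3540 genes. Later-minus-earlier differences called 60 to 124 genes by set, 358 with scaled arrays, 468 at an adjusted p under 0.05, 315 with the replicate block and 242 without 25, 40 and 55 min, against 107. Members called there were 3 at the looser threshold and with the replicate block, and 0 with pairs 65 min apart (7 at an unadjusted p under 0.05), where FRE1 had an adjusted p of 0.019. The release difference of FRE2 was -0.12 against the cycle model and 0.074 against 70 to 80 min. Of the 10 genes most like FIT2, 3 were shared over 15 to 120 min and 4 to 5 by set. The replicate block is the time point, or the pair of times for differences, taken from the labels, and the array set is a factor. Both arrays of a time point then enter as separate values, which are technical repeats per the design text. The cause of these changes was not tested. Under the replicate block FET3 and FTR1 were also periodic, and FET3 and FIT3 also had a slope. With 1 time course, none of these settings measures the spread between cultures.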
